A study of Mus musculus with 53 samples.

Results

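The expression of 10 core genes of the circadian clock was followed in all 53 RNA-seq libraries of the series. The genes were Arntl, Per1, Per2, Per3, Cry1, Ciart, Nr1d1, Nr1d2, Dbp and Tef, taken by symbol from 55421 genes in the count table, and all 10 were found. They passed the low-count filter in every comparison. RNA came from whole pieces of mouse proximal colon or small intestine, so fewer cells of a type and less RNA per cell cannot be told apart.

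All mice carried VilCreER, a tamoxifen-inducible Cre driven by the villin promoter in intestinal epithelium, and WT mice carried nothing else. A mice were Alk5fl/fl, which removes the TGFβ receptor ALK5 (Tgfbr1) from the epithelium, and BA mice were BrafV600E/+ Alk5fl/fl. Proximal colon was taken 30 days after induction from WT (n = 4), A (n = 4), A given sulindac (n = 4), BA (n = 5) and BA given antibiotics (n = 5) mice. BA tumours (n = 4) and proximal colon of WT mice with no day in their labels (n = 3) formed a further colon set. Sulindac, an inhibitor of cyclooxygenases, was given at 0.4 g/L from the day after the first tamoxifen injection. It was stopped before the tissue of day 30 was taken. The antibiotics were ampicillin, neomycin trisulphate and metronidazole at 1 g/L each and vancomycin at 500 mg/L. Small intestine came from Apcfl/fl (n = 10) and WT (n = 6) mice 4 days after induction, and from Apcfl/+ tumours (n = 5) with small intestine of WT mice (n = 3). The background was mixed C57BL/6J N6 in all groups but Apcfl/+ tumours and WT small intestine, which were inbred C57BL6/J. Male and female mice were used and induced as adults. They were kept in a 12 h light and dark cycle, and the hour at which each mouse was sampled is not given in the sources used here. No label names a sequencing batch or the sex of a library.

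The clock is a transcriptional feedback loop present in nearly every cell. BMAL1, the product of Arntl, pairs with CLOCK or NPAS2 and activates genes that carry E-boxes, among them the Per, Cry and Nr1d genes, Ciart, Dbp and Tef. PER and CRY proteins and CIART then repress BMAL1 and CLOCK, and the REV-ERB receptors encoded by Nr1d1 and Nr1d2 repress Arntl. DBP, TEF and HLF are related activators that bind D-boxes, where NFIL3 represses. Because of this wiring, Arntl peaks at nearly the opposite time of day to Dbp and Nr1d1 in most tissues, so their ratio in 1 sample carries information on clock time. The gut has such a clock in epithelium and in other layers, and feeding time, light, glucocorticoids and growth signals can shift it. Per1 also responds quickly to glucocorticoids and to cyclic AMP.

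On GRCm38 (GENCODE M21 annotation), Arntl lies on the plus strand at chr7:113207465-113314126 and Dbp at chr7:45705088-45710203, also on the plus strand. Per1 lies at chr11:69095217-69109960, Per2 at chr1:91415982-91459324, Per3 at chr4:151003652-151044665 and Cry1 at chr10:85131700-85185064. Ciart lies at chr3:95878503-95882251, Nr1d1 at chr11:98767932-98775333, Nr1d2 at chr14:18204054-18239127 and Tef at chr15:81802421-81826863. The library kit does not mark strand, so reads where 2 genes overlap on opposite strands cannot be assigned with certainty. This concerns 18% of the exon bases of Dbp (shared with Sphk2), 8.55% of those of Nr1d1 (shared with Thra), 2.45% of Tef and 0.439% of Arntl, while the exons of the other 6 genes overlapped none of a gene on the opposite strand.

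Promoters are printed for the 5 genes in which the 250 bases before a start site held an E-box (CACGTG, the same on both strands) or a D-box (TTATGTAA, searched on both strands), since these are the elements through which the loop acts. RefSeq start sites (GRCm38.p6) were at hand for 9 of the 10 genes, with no entry for Per2. Each stretch of 120 bases is on the strand of the gene, and capitals mark the element. Ciart held 3 E-boxes, Per1, Cry1 and Tef 1 each in the stretch shown, and Per3 a pair of D-boxes.
Ciart E-boxes, chr3:95882246-95882365, minus strand: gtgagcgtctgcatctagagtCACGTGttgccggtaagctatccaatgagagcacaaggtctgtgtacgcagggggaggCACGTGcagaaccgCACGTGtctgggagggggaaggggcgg
Per1 E-box, chr11:69098726-69098845, plus strand: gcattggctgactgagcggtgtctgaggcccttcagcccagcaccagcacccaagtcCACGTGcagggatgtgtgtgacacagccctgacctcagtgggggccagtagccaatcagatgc
Cry1 E-box, chr10:85185055-85185174, minus strand: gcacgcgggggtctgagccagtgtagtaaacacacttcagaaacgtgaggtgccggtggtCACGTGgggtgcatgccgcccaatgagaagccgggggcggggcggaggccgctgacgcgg
Tef E-box, chr15:81802489-81802608, plus strand: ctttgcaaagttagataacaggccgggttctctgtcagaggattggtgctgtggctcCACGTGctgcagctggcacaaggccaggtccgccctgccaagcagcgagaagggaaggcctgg
Per3 D-boxes, chr4:151044784-151044903, minus strand: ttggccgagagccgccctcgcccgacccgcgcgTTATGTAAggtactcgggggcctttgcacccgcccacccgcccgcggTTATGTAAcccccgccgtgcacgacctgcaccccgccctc

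The E-box was present in 6.02% of 32851 mouse promoters searched in the same way and the D-box in 0.819%. The windows of Arntl, Dbp, Nr1d1 and Nr1d2 held neither, which says only that these letters are not in these bases. A weaker E-box form, CACGTT, stood in the windows of Nr1d1 and Cry1 and in 3.85% of all promoters. AGGTCA, the half-site read by REV-ERB receptors, stood in those of Nr1d2 and Per1 and in 14.0% of all. A letter match is a description of the sequence and not a measured binding site.

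Between 516985 and 32824795 reads per library were counted on genes, and group medians ran from 15655851 to 21715982. Apcfl/fl replicate 1 was by far the shallowest library. Gm13394, a predicted gene used here because its level separates libraries within groups, exceeded 10 CPM in every BA and A library of day 30 and in none of the 4 WT libraries of day 30, so that in those comparisons it cannot be told apart from genotype. It also exceeded 10 CPM in 3 of 4 BA tumours, 0 of 3 WT proximal colons, 3 of 3 WT small intestines and 0 of 5 Apcfl/+ tumours. The Y-linked gene Ddx3y exceeded 10 CPM in every day-30 library, but in 3 of 4 BA tumours against 0 of 3 WT proximal colons and in 1 of 5 Apcfl/+ tumours against 3 of 3 WT small intestines. Apc reads ran from 36.9 to 155 CPM in Apcfl/fl libraries and from 63.2 to 113 CPM in WT of day 4. Counts over a whole gene do not show the loss of a floxed exon, so this is no check of the labels. Epithelial markers were present in all groups, Epcam at 785 CPM or more in every library.

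Levels below are normalised CPM, reads scaled to library size with TMM factors over all 53 libraries, and group values are means ± SD. Arntl stood highest in WT colon of day 30 (58.3 ± 8.18), followed by A (46.0 ± 9.02), antibiotic-treated BA (44.8 ± 3.96), sulindac-treated A (44.1 ± 7.67) and BA (40.4 ± 9.50) of the same day. It was lower in WT proximal colon with no day (34.0 ± 6.72), WT small intestine of day 4 (26.4 ± 10.8), BA tumours (23.7 ± 7.15), WT small intestine (22.4 ± 5.42), Apcfl/fl (18.5 ± 4.14) and Apcfl/+ tumours (17.3 ± 1.36). Most neighbours in this order lay within 1 SD of each other, and their ranges overlapped, apart from the first step, from WT to A, where the means differed by more than either SD while the ranges overlapped.

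Dbp ran nearly the other way among the colon groups but not in small intestine, where Apcfl/fl was low for both genes. The mean of Dbp was highest in WT small intestine of day 4 (49.7 ± 36.8) and WT small intestine (40.1 ± 17.1), then WT proximal colon (24.9 ± 11), Apcfl/+ tumours (12.8 ± 3.14) and BA tumours (12.2 ± 4.69). It was under 10 in BA (8.60 ± 2.88), A (7.96 ± 5.90), sulindac-treated A (7.81 ± 2.78), Apcfl/fl (6.59 ± 3.83), antibiotic-treated BA (6.06 ± 1.5) and WT colon of day 30 (4.37 ± 1.70). WT proximal colon and WT colon of day 30, the same genotype and tissue, thus stood near opposite ends of the colon groups for both genes. These sets also differed in Ddx3y, as given above.

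Nr1d1 spanned the widest range of group means, 3.97 on the log2 scale, from 145 ± 29.1 in WT small intestine of day 4 to 9.12 ± 1.69 in Apcfl/+ tumours. Cry1 spanned the least, 1.32, and its group means were 28.9 to 33.1 in the 5 day-30 groups and 13.3 to 17.9 in the other 6. Per kilobase of exon, Nr1d1 was the most abundant of the 10 genes in 7 groups and Nr1d2 in the other 4, with a mean of 47.1 CPM per kb for Nr1d1 in WT of day 4. Ciart was the least abundant in all 11, at 0.402 to 1.67 CPM per kb.

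**Figure D1:**
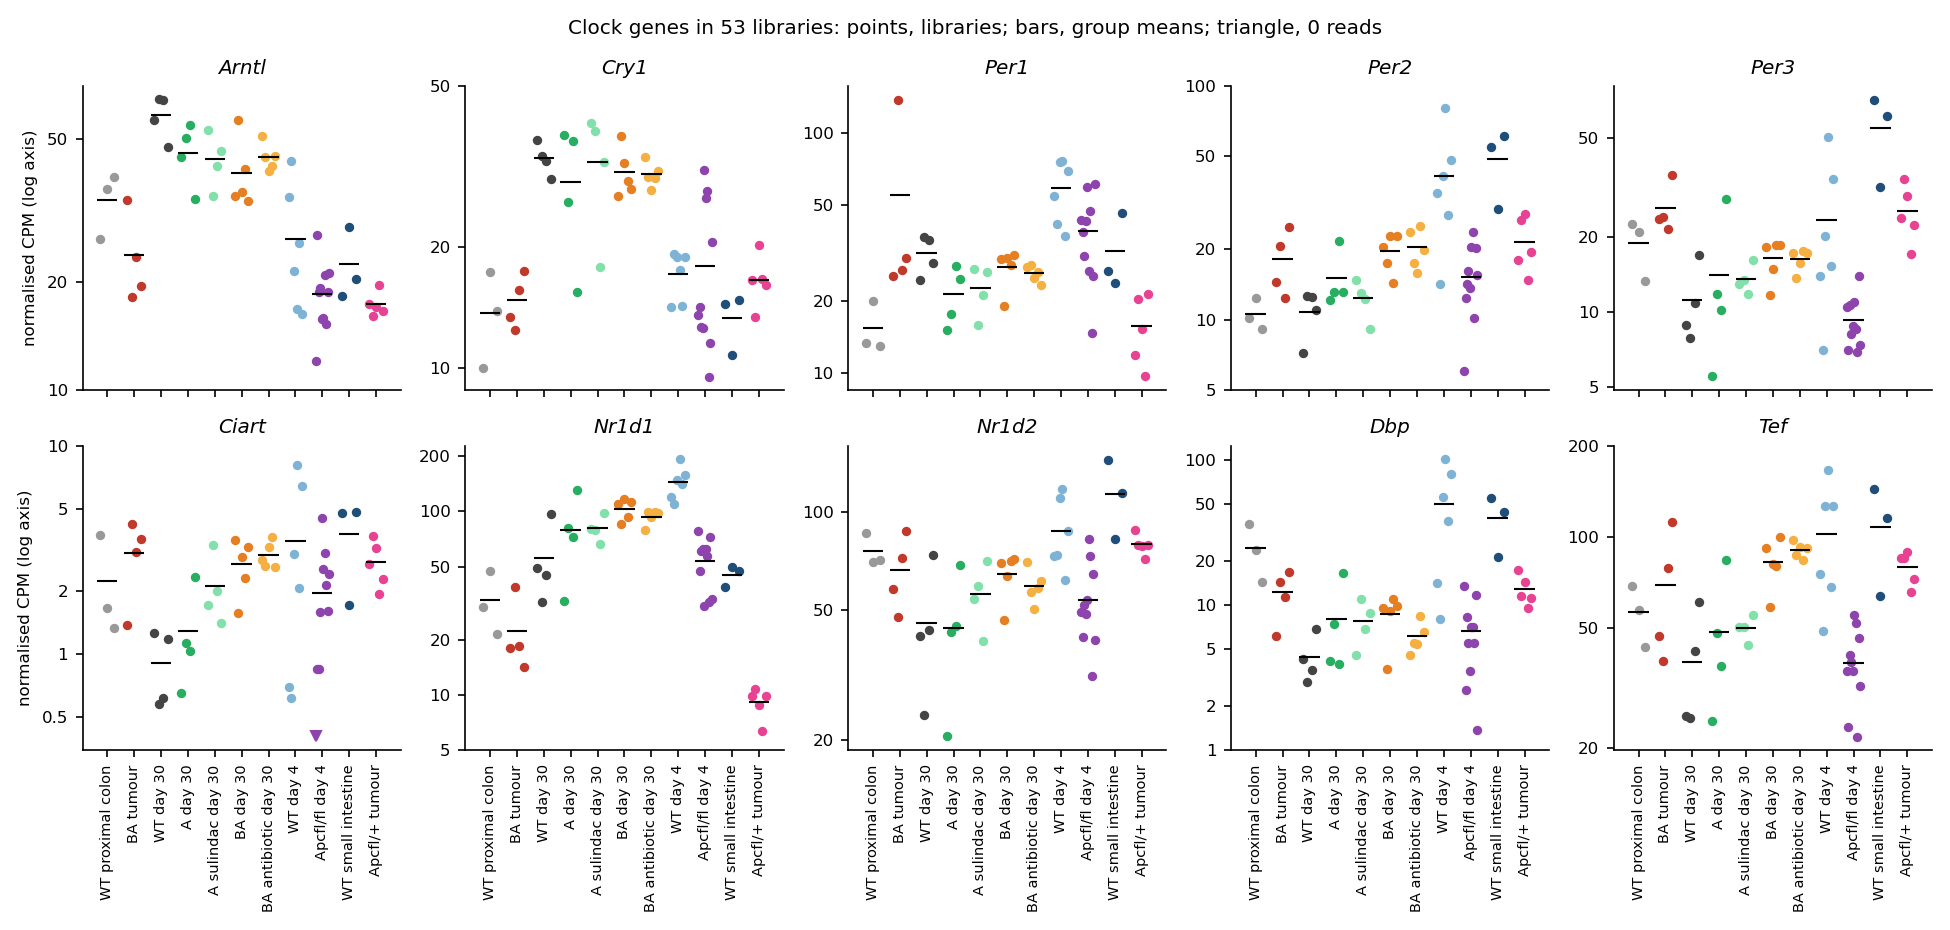
Normalised CPM (log axis) of the 10 clock genes in 53 libraries of 11 groups, 1 point per library with the group mean as a bar and a triangle for the library with 0 reads. Arntl and Cry1 are higher in the day-30 colon groups than in other groups, Nr1d1 is lowest in the 5 Apcfl/+ tumours (6.37 to 10.8), and Dbp spreads from 8.04 to 101 among WT mice of day 4.

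Mice of 1 group differed from each other most in Ciart and Dbp. The pooled within-group SD was 0.98 on the log2 scale for Ciart and 0.83 for Dbp, against a median of 0.46 over 23478 genes, and 0.33 for Arntl. Ciart was also the least expressed member, with 0 reads in Apcfl/fl replicate 1. That library was so shallow that 3 reads are worth more than the Ciart level of most others.

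After the group mean was taken from each library, Arntl moved against Dbp (Pearson r = -0.82 over 53 libraries), Per3 (r = -0.68) and Tef (r = -0.56). Tef moved with Nr1d2 (r = 0.87), Per3 (r = 0.85) and Dbp (r = 0.70), and Per3 with Dbp (r = 0.80). Cry1 had r between -0.29 and 0.26 with the other 9 genes. These correlations are descriptions, and the libraries share their groups, tissue and depth differences. Among 12225 other genes, those most like Arntl were Baiap2l1 (r = 0.69), Ccnjl (r = 0.68), Stk38 (r = 0.67), Nol4l (r = 0.66) and Naa35 (r = 0.65), and the most opposed were Rcsd1 (r = -0.57), Sytl1 (r = -0.53), Rgs19 (r = -0.51), Herpud1 (r = -0.50) and Map3k8 (r = -0.50). Those most like Dbp were Ighv1-39 (r = 0.52), Ripor2 (r = 0.50), Zfp12 (r = 0.49), Maob (r = 0.47) and Sept6 (r = 0.46). Opposed to Dbp were Tprn (r = -0.62), Stk38 (r = -0.58), Baiap2l1 (r = -0.56), E2f2 (r = -0.53) and Ccnjl (r = -0.53).

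The 6 WT mice of day 4 differed widely in Dbp and Arntl. Dbp was 14.3, 8.04, 55.9, 101, 38.3 and 80.8 CPM in replicates 1 to 6, and Arntl was 34.5, 43.6, 21.4, 16.8, 25.7 and 16.3 CPM. Replicates 1 and 2 had the highest Arntl with the lowest Dbp, and replicates 4 and 6 the reverse. Ciart followed Dbp, with 0.695, 0.618, 3.03, 8.11, 2.07 and 6.39 CPM.

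Over these 6 mice Arntl fell as Dbp rose (Pearson r = -0.99, exact permutation p = 0.00556, adjusted p = 0.025 over 18 relations; Spearman rho = -0.94, exact permutation p = 0.0167, adjusted p = 0.075). Ciart (r = -0.98), Per3 (r = -0.95) and Nr1d1 (r = -0.94) gave the same exact permutation p and adjusted p by Pearson and the same rho, p and adjusted p by Spearman. Per2 (r = -0.88) and Tef (r = -0.92) each had an exact permutation p of 0.0222 (adjusted p = 0.0667) by Pearson. Their rho was -0.89 (exact permutation p = 0.0333, adjusted p = 0.12) and -0.77 (exact permutation p = 0.103, adjusted p = 0.308). Per1 (r = -0.72), Nr1d2 (r = -0.64) and Cry1 (r = -0.24) had exact permutation p-values of 0.125, 0.164 and 0.608. None of the 18 relations passed the adjustment by Spearman. Without the 2 mice farthest from the median of Arntl, r was -0.96 for Dbp, -0.97 for Ciart, -0.93 for Per3 and -0.74 for Nr1d1, over 4 mice, too few for a test. Gm13394 exceeded 10 CPM in replicates 4 to 6, and 3 mice on either side are too few for a value within each set.

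In the 10 Apcfl/fl mice of the same day the relation of Arntl to Dbp was r = -0.56 (permutation p = 0.0921, adjusted p = 0.237) and rho = -0.53 (permutation p = 0.123, adjusted p = 0.317). It was r = -0.18 without the 2 mice farthest from the median of Arntl. Leaving these out narrows the range of Arntl, so this value cannot show that the relation rests on them. Without replicate 1 or replicate 8, r ran from -0.58 to -0.39. None of the 9 relations passed in this group, with r from -0.56 to 0.52. The difference between the groups was not tested. Dbp spanned 1.36 to 13.5 CPM and Arntl 12.0 to 27.1 CPM in Apcfl/fl mice.

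**Figure D2:**
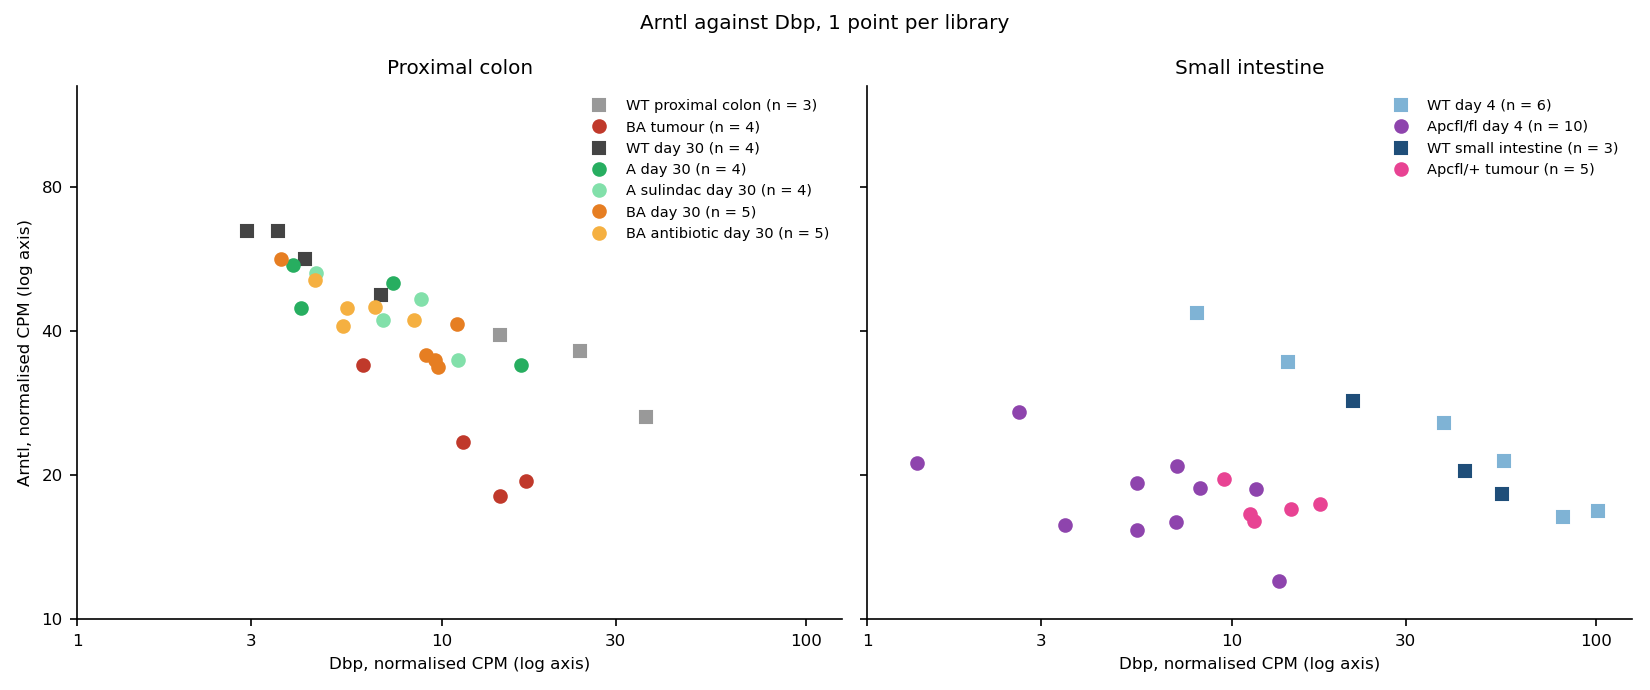
Arntl against Dbp in normalised CPM (both axes log), 1 point per library, squares for WT and circles for other genotypes, with proximal colon on the left and small intestine on the right. The WT mice of day 4 run from Dbp 8.04 with Arntl 43.6 to Dbp 101 with Arntl 16.8, while Apcfl/fl and Apcfl/+ tumour libraries lie at low values of both genes.

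WT mice serve as controls in 4 sets, and the sets differed among themselves. WT colon of day 30 was compared with WT proximal colon that has no day in its labels, a comparison added after the levels were seen. Ddx3y exceeded 10 CPM in 4 of 4 day-30 libraries and in 0 of 3 proximal colons, which cannot be told apart from the day. Arntl was 1.71-fold higher at day 30 (log2 fold change 0.78 ± 0.18 SE, edgeR adjusted p = 0.00671), with 56.5, 64.8, 64.6 and 47.5 CPM against 26.4, 36.3 and 39.2. Dbp fell by 2.51 ± 0.35 on the log2 scale (adjusted p = 0.000442), from 36.3, 23.9 and 14.4 CPM to 4.21, 2.93, 3.55 and 6.79. The groups did not overlap for either gene.

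Of the 10 clock genes, 6 passed the test in this comparison, against 44.2% of 19007 genes, 23% higher and 21.2% lower. Cry1 (log2 fold change 1.27 ± 0.19) and Per1 (1.03 ± 0.22) were higher with Arntl, and Ciart (-1.32 ± 0.43) and Per3 (-0.77 ± 0.28) were lower with Dbp. By edgeR Nr1d1 was not called (0.75 ± 0.38, adjusted p = 0.142), nor were Nr1d2 (-0.74 ± 0.30, adjusted p = 0.07), Tef and Per2. Nr1d2 was called as lower by DESeq2 (adjusted p = 0.0318), by limma with voom (adjusted p = 0.0461) and without the low-count filter (adjusted p = 0.00848), and Nr1d1 as higher without the filter (adjusted p = 0.0248). Nr1d1 was also called without proximal colon replicate 2 (adjusted p = 0.0401), and Nr1d2 and Tef without day-30 replicate 4 (adjusted p = 0.00641 and 0.0244). In the other lists 7 of 9 immediate early genes were higher, 5 of 8 glucocorticoid-responsive genes higher and 1 lower, and 4 of 8 immune markers higher and 2 lower. The glucocorticoid-responsive list holds Per1 itself and Tsc22d3 of the other clock genes, here and in every later comparison. Of 10 epithelial markers 2 were higher and 2 lower, of 10 stromal 2 higher and 3 lower, of 8 nervous system 3 higher and of 8 smooth muscle 1 higher. Their part was not tested. No overlap between groups was seen for 5 members and for 47.4% of all genes. Per3 lost its call in 5 of 7 fits with 1 library left out, those without WT proximal colon replicates 1 or 2 or day-30 replicates 1, 2 or 3 (adjusted p up to 0.13). Ciart lost it without proximal colon replicate 1 or day-30 replicates 2 or 3 (adjusted p up to 0.16).

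WT small intestine of day 4 differed from the other WT small intestine in Nr1d1, the repressor of Arntl, which was higher by 1.46 ± 0.18 on the log2 scale (adjusted p = 4.23e-05), with 110 to 192 CPM against 38.5, 49.7 and 47.5. Per3 (-1.43 ± 0.49) and Nr1d2 (-0.59 ± 0.22) were lower, and the other 7 genes were not called, against 57.4% of 20365 genes called, 26% higher and 31.4% lower. Nr1d1 was the 1 member with no overlap, beside 57.1% of all genes. Background strain differs between these sets and cannot be told apart from the day. Per3 lost its call without day-4 replicate 5 or without small intestine replicates 1 or 3 (adjusted p up to 0.10), and Nr1d2 in 6 of 9 such fits, without day-4 replicates 1, 2, 5 or 6 or small intestine replicates 1 or 3 (adjusted p up to 0.197). Per1 was called as higher without day-4 replicates 2 or 5 or small intestine replicate 3 (adjusted p from 0.0189 to 0.0459), and without the low-count filter (adjusted p = 0.0341). 7 of 10 epithelial markers were higher, with sums of 11492 to 16373 CPM against 7677 to 9154 CPM, as were 5 of 9 immediate early genes and 2 of 8 nervous system markers. Of 9 immune markers tested 3 were higher and 2 lower, of 10 stromal 2 and 2, of 8 smooth muscle 1 and 2, and of 8 glucocorticoid-responsive genes 2 and 1. Their part was not tested.

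At day 30 the colon of BA mice had less Arntl and more Ciart, Tef, Dbp, Nr1d1, Per2 and Per3 than WT colon. 7 of the 10 genes passed the test, against 55.1% of 17471 genes, so the share called is not far from the background. Arntl was lower (log2 fold change -0.50 ± 0.16, edgeR adjusted p = 0.0169). The 6 others were higher: Ciart (1.61 ± 0.31, adjusted p = 0.00109), Tef (1.13 ± 0.25, adjusted p = 0.00274), Dbp (1.01 ± 0.31, adjusted p = 0.0178), Nr1d1 (0.92 ± 0.26, adjusted p = 0.00961), Per2 (0.88 ± 0.18, adjusted p = 0.00193) and Per3 (0.59 ± 0.21, adjusted p = 0.0347). 25.8% of all genes were called higher and 29.3% lower. The median log2 fold change of the 10 genes was 0.74, beside -0.03 over all genes tested.

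Tef, an activator that binds D-boxes, was 91.8, 58.4, 81.3, 79.9 and 100 CPM in the 5 BA mice and 25.6, 25.1, 42.0 and 60.9 CPM in WT mice. BA replicate 2 and WT replicate 4 met in the middle. Per2, a repressor of BMAL1, was 20.4, 17.5, 22.9, 14.3 and 22.8 CPM in BA mice and 7.22, 12.6, 12.5 and 11 CPM in WT mice, with no overlap. Ciart, which also represses BMAL1, was 3.52, 1.57, 2.93, 2.31 and 3.26 CPM in BA mice and 1.26, 0.576, 0.616 and 1.18 CPM in WT mice, again without overlap (45.4% of all genes showed none). Arntl itself was 34.9, 56.6, 35.7, 41.3 and 33.6 CPM in BA mice, where replicate 2 reached the WT range of 47.5 to 64.8.

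BA replicate 2 thus lay nearer to WT for Arntl, Dbp (3.62 CPM against 9.03 to 11 in the other 4 BA mice) and Ciart, and WT replicate 4 nearer to BA for Nr1d1 (97.4 CPM against 32.1 to 49.1 in the other 3 WT mice), Nr1d2, Dbp and Tef. Without WT replicate 4 the number of genes called rose to 8 with Nr1d2 (0.86, adjusted p = 0.00474). Per3 lost its call in 6 of 9 fits with 1 library left out, those without BA replicates 1, 4 or 5 or WT replicates 1, 2 or 3 (adjusted p up to 0.0969), and Dbp without WT replicates 2 or 3 (adjusted p up to 0.0548). With all 5 day-30 groups in 1 fit Per3 was not called (adjusted p = 0.12). Nr1d2 did not pass (0.53 ± 0.25, adjusted p = 0.0906), and Per1 (-0.16 ± 0.16) and Cry1 (-0.08 ± 0.11) passed in no fit.

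Markers of cell types moved with this comparison. Of 10 epithelial markers 9 were higher in BA colon, with summed levels of 25674 to 29623 CPM against 13309 to 15764 CPM in WT. Of 8 smooth muscle markers 6 were lower, with sums of 970 to 4053 CPM against 5158 to 5955 CPM, and all 8 nervous system markers were lower, with sums of 9.01 to 25.5 CPM against 30.44 to 70.7 CPM. 7 of 10 stromal markers were lower as well, with sums of 1157 to 1461 CPM against 1620 to 1993 CPM, and 1 of 7 immune markers tested. 6 of 9 immediate early genes were higher, and of 8 glucocorticoid-responsive genes 3 were higher and 2 lower. No marker of the 5 marker lists was at 0 in every library of a group. The part of these lists in the clock gene changes was not tested.

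The same direction was measured in BA mice given antibiotics, set against the same 4 WT mice. 6 of 10 genes passed, against 39.6% of 17569 genes, 21.8% higher and 17.8% lower. Ciart (1.76 ± 0.27, adjusted p = 0.00055), Tef (1.27 ± 0.24, adjusted p = 0.00189), Per2 (0.94 ± 0.19, adjusted p = 0.00308), Nr1d1 (0.78 ± 0.26, adjusted p = 0.0368) and Per3 (0.59 ± 0.20, adjusted p = 0.0406) were higher, and Arntl was lower (-0.35 ± 0.11, adjusted p = 0.0218). Dbp gave 0.50 ± 0.26 (adjusted p = 0.154). The WT mice are shared with the preceding comparison, so the values are not independent of it. 9 of 10 epithelial markers were higher here as well, while 0 of 8 smooth muscle, 0 of 10 stromal, 2 of 7 immune and 3 of 8 nervous system markers were lower. Stromal sums ran from 1234 to 8131 CPM (median 1616) on antibiotics and from 1620 to 1993 CPM in WT mice. Immune sums ran from 84.3 to 390 CPM (median 105) and from 167 to 244 CPM. 6 of 9 immediate early genes were higher, and of 8 glucocorticoid-responsive genes 1 was higher and 2 lower. Their part was not tested.

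Tef was 97.2, 87.2, 92.3, 83.8 and 92.0 CPM in antibiotic-treated BA mice, above all 4 WT mice. Ciart ran from 2.63 to 3.65 CPM and Per2 from 15.8 to 25.2 CPM, both also without overlap, beside 33.4% of all genes. Nr1d1 ran from 78.7 to 99.4 CPM, where WT replicate 4 (97.4) fell inside the range. Per3 lost its call in 7 of 9 fits with 1 library left out (not without antibiotic replicate 3 or WT replicate 4) and Nr1d1 in 6, those without antibiotic replicates 2, 4 or 5 or WT replicates 1, 2 or 3 (adjusted p up to 0.114). Arntl lost it without WT replicates 2 or 3 (adjusted p up to 0.0652) and with all 5 groups in 1 fit (adjusted p = 0.0779). Per3 was also not called with all 5 groups in 1 fit (adjusted p = 0.154) or without the low-count filter (adjusted p = 0.0586). Without WT replicate 4, Nr1d2 (0.73, adjusted p = 0.0151) and Dbp (0.79, adjusted p = 0.03) were called as well, as was Per1 as lower without WT replicate 1 (-0.36, adjusted p = 0.0246).

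Between BA mice with and without antibiotics 0 of 10 genes passed edgeR's quasi-likelihood test, beside 13% of 16680 genes. None had an unadjusted p under 0.05, and DESeq2 and limma with voom called 0 as well. Dbp showed the largest difference (-0.51 ± 0.27, adjusted p = 0.216), with 4.49 to 8.39 CPM on antibiotics and 3.62 to 11 CPM without. When BA replicate 2 was left out, Dbp (-0.68, adjusted p = 0.0373) and Arntl (0.31, adjusted p = 0.0393) passed, in opposite directions.

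Alk5 deletion alone was followed by no called clock gene. Against WT colon, A colon gave 0 of 10, beside 0.141% of 17713 genes (25 genes) called. Only Per1 had an unadjusted p under 0.05 (-0.54 ± 0.20, adjusted p = 0.487), and DESeq2 and limma with voom called 0. Dbp was 4.11, 7.34, 3.92 and 16.5 CPM in A mice and differed by 0.89 ± 0.44 (edgeR unadjusted p = 0.0725, adjusted p = 0.525). Its 95% interval of 0.02 to 1.76 was built from the SE with a normal quantile. That is narrower than edgeR's test allows, so it is not a sign of a difference. A replicate 4 stood apart from the other 3 with more Dbp, Nr1d1 (130 CPM against 32.3 to 81.3), Per3 (28.5 against 5.54 to 11.9) and Tef (83.6 against 24.6 to 47.9) and less Arntl (34.0 against 44.6 to 54.9). Sulindac in A mice gave 0 of 10 called, beside 0% of 17568 genes, with 0 at an unadjusted p under 0.05 and 0 by DESeq2 and by limma with voom. Ciart had the largest difference (0.69 ± 0.40), with 1.72, 3.34, 2.02 and 1.42 CPM after sulindac and 0.652, 1.13, 1.04 and 2.36 CPM without.

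Set against A mice rather than WT, BA colon had higher Ciart (1.08 ± 0.36, adjusted p = 0.0277) and Tef (0.81 ± 0.29, adjusted p = 0.0394), 2 of 10 genes beside 45.3% of 17128, 21.7% higher and 23.6% lower. Arntl did not pass (-0.15 ± 0.18, adjusted p = 0.535). Of the markers, 9 of 10 epithelial were higher (sums of 25674 to 29623 CPM against 13310 to 21303 CPM), and 7 of 8 nervous system, 4 of 10 stromal, 3 of 8 smooth muscle and 2 of 8 immune markers were lower. 6 of 9 immediate early genes were higher, and of 8 glucocorticoid-responsive genes 3 were higher and 2 lower. Their part was not tested. Neither call was stable: Tef lost it in 6 of 9 fits with 1 library left out, those without BA replicates 1, 3 or 5 or A replicates 1, 2 or 3 (adjusted p up to 0.083). Ciart lost it in 5, without BA replicates 1, 3 or 5 or A replicates 1 or 2 (adjusted p up to 0.0604). Without A replicate 4 the count rose to 5, as Per3 (0.91, adjusted p = 0.0124), Nr1d1 (0.81, adjusted p = 0.0235) and Nr1d2 (0.91, adjusted p = 0.0109) were added. Per1 and Per2 were called without A replicate 3, Per1 also without BA replicate 2 and Per2 without BA replicate 4 (adjusted p from 0.00448 to 0.0484), and Nr1d2 without the low-count filter (adjusted p = 0.0306).

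**Figure D3:**
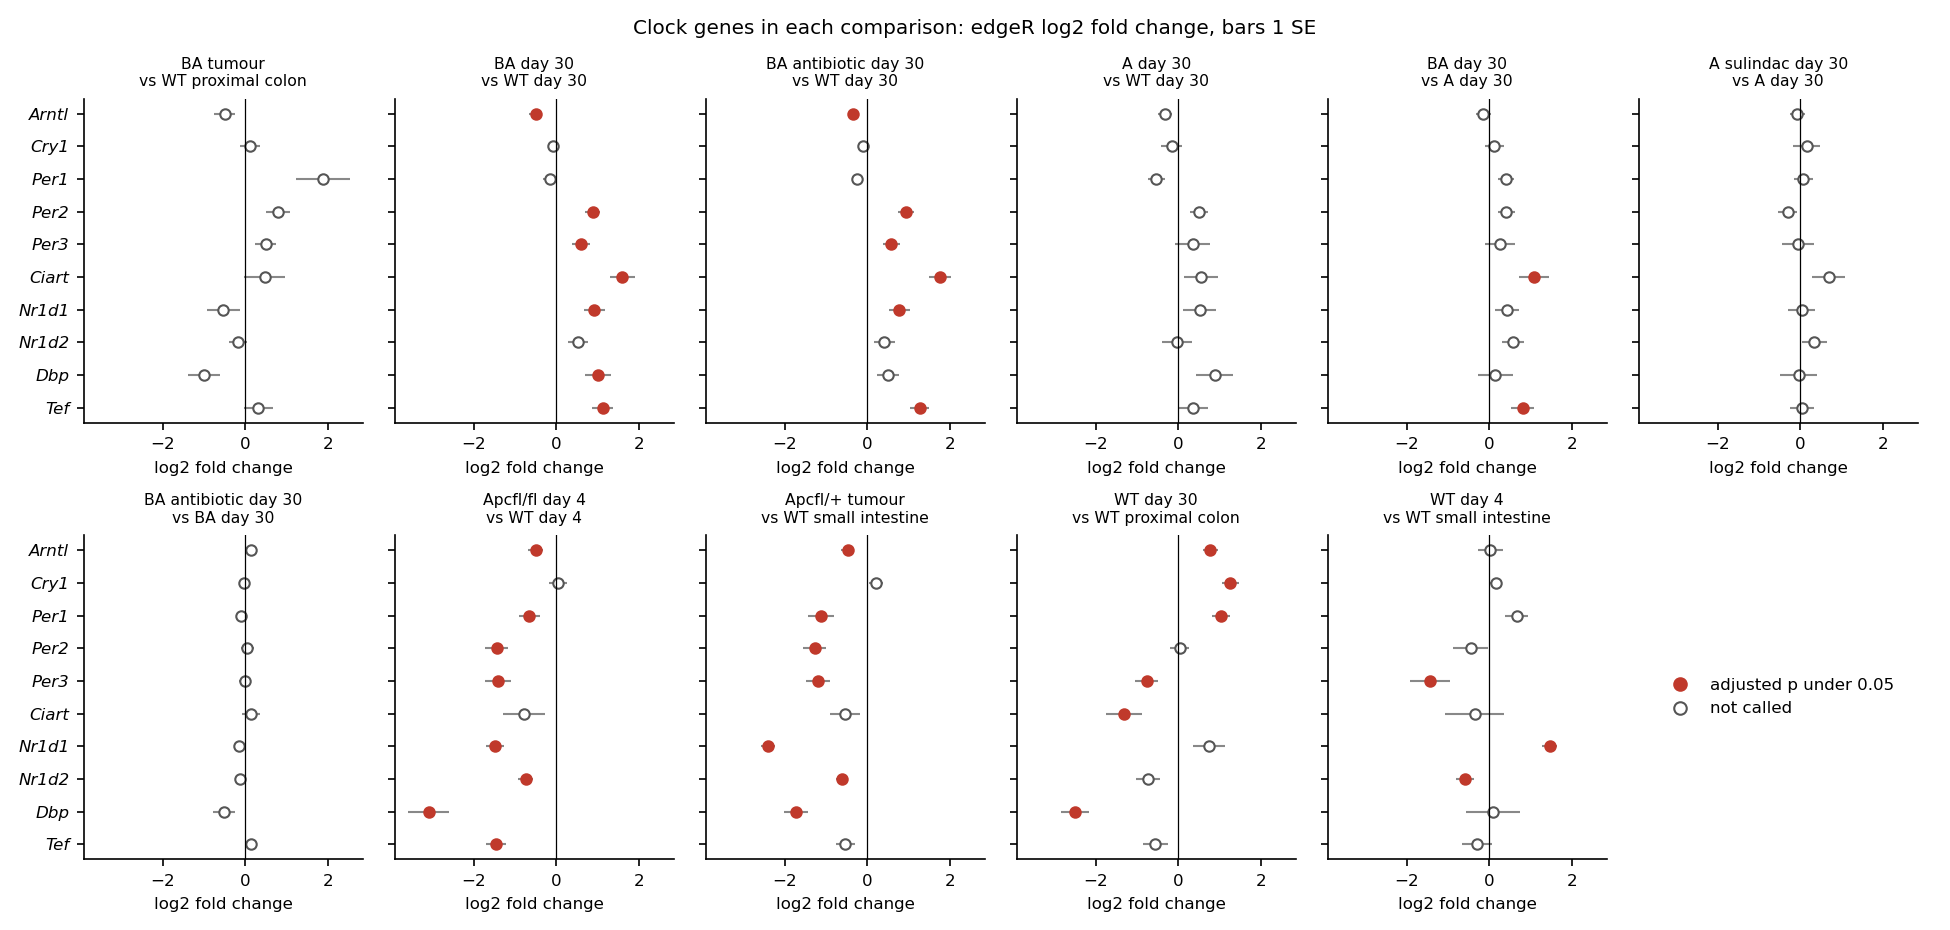
edgeR log2 fold change with 1 SE for the 10 clock genes in 9 study comparisons and in 2 comparisons between WT sets, filled where adjusted p is under 0.05. At day 30 Arntl is below 0 and the called Per2, Per3, Ciart, Nr1d1, Dbp and Tef above 0 in BA against WT, whereas in Apcfl/fl and Apcfl/+ tumours the called genes, Arntl included, are all below 0.

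In endpoint BA tumours 0 of 10 clock genes passed edgeR's test against WT proximal colon, beside 13.2% of 19188 genes, and 3 had an unadjusted p under 0.05. These were Per1 (1.89 ± 0.65, adjusted p = 0.0927), Dbp (-1.00 ± 0.39, adjusted p = 0.132) and Per2 (0.80 ± 0.29, adjusted p = 0.104). DESeq2 called 1 gene, Per1 (1.90, adjusted p = 0.013), and limma with voom 0. Without the low-count filter Per1 and Dbp were called (adjusted p = 0.00212 and 0.0378).

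Per1 was 25.3, 137, 27 and 30.297 CPM in the 4 tumours and 13.3, 19.9 and 13 CPM in WT colon, so the groups did not overlap, as in 26.9% of all genes. Tumour replicate 2 carried most of the difference in the mean. Without it the change was smaller and passed the test (0.82, adjusted p = 0.0316), and Nr1d1 passed as lower (-0.99, adjusted p = 0.0471). In that library the immediate early genes Egr1 (72.9 CPM against 4.48 to 25.5 in the other 3 tumours), Junb (359 against 162 to 249) and Zfp36 (119 against 23.5 to 25.5) and the glucocorticoid-responsive Dusp1 (157 against 13.2 to 21.2) were also the highest of the group. Junb and Zfp36 were named after their values were seen, and the remaining genes of these lists are not given for that library. Dbp was 6.06, 14.4, 11.4 and 17.0 CPM in tumours and 36.3, 23.9 and 14.4 CPM in WT colon.

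Across the lists, 1 of 8 glucocorticoid-responsive genes (Ddit4, 1.43 ± 0.23, adjusted p = 0.00557) and 1 of 9 immediate early genes (Junb, 1.28 ± 0.31, adjusted p = 0.0288) were higher in the tumours and none lower, Per1 being a member of the first list too. 7 of 10 immune markers and 5 of 10 stromal markers were higher, with summed immune levels of 472 to 1382 CPM against 295 to 312 CPM and stromal sums of 4569 to 5963 CPM against 1856 to 2689 CPM. 3 of 8 smooth muscle markers were lower. The tumour and WT libraries also differed in Gm13394 and Ddx3y as given above. The part of each in these values was not tested.

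The change in tumours was set against that at day 30 in a model with an interaction term, in which each is measured from its own WT colon. Dbp differed by -2.02 ± 0.53 (edgeR adjusted p = 0.0159), with -1.00 in tumours, where it was not called, and 1.01 at day 30. Per1 differed by 2.02 ± 0.64 (adjusted p = 0.0407). 16.3% of 20637 genes were called, 9.87% above and 6.46% below 0. Per1 lost its call in 10 of 16 fits with 1 library left out, those without WT proximal colon replicates 1 or 3, any of the 5 BA day-30 libraries or WT day-30 replicates 2, 3 or 4 (adjusted p up to 0.111), and Dbp without WT proximal colon replicate 1 (adjusted p = 0.0541). Nr1d1 gave -1.48 ± 0.50 (adjusted p = 0.0521) and passed without BA tumour replicate 2, WT proximal colon replicate 3 or WT day-30 replicate 4, as did Nr1d2 without the last (adjusted p from 0.00653 to 0.0423). The calls differed by tool and filter: Nr1d1 was called by DESeq2 (adjusted p = 0.0246), by limma with voom (adjusted p = 0.0204) and without the low-count filter (adjusted p = 0.0101), while Per1 was not called with voom (adjusted p = 0.0719) and had no adjusted p from DESeq2. The WT sets used in the interaction differed from each other by -2.51 in Dbp and 1.03 in Per1, and also in Ddx3y, as given above.

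In small intestine 4 days after Apc deletion, 8 of the 10 clock genes were lower than in WT and none higher, beside 54.2% of 17536 genes called, 26.7% lower and 27.5% higher. Dbp changed most (-3.10 ± 0.51, edgeR adjusted p = 8.08e-05), followed by Nr1d1 (-1.48 ± 0.21, adjusted p = 2.49e-05), Tef (-1.47 ± 0.24, adjusted p = 8.85e-05), Per2 (-1.45 ± 0.27, adjusted p = 0.000304) and Per3 (-1.41 ± 0.32, adjusted p = 0.00132). Nr1d2 (-0.74 ± 0.18, adjusted p = 0.00206), Per1 (-0.65 ± 0.25, adjusted p = 0.0334) and Arntl (-0.50 ± 0.18, adjusted p = 0.0268) fell by less. Arntl therefore fell along with the genes it usually opposes. Cry1 (0.03 ± 0.22) and Ciart (-0.78 ± 0.51) were not called. The median over the 10 genes was -1.09, beside -0.000362 over all genes tested.

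Nr1d1 ran from 30.7 to 78.0 CPM with a median of 59.1 in the 10 Apcfl/fl mice and from 110 to 192 CPM with a median of 145 in the 6 WT mice. These groups did not overlap, and it was the only member of which this held, beside 15.8% of all genes. Dbp ran from 1.36 to 13.5 CPM (median 6.27) in Apcfl/fl mice and from 8.04 to 101 CPM (median 47.1) in WT mice, where replicates 1 and 2 overlapped the Apcfl/fl range. In those 2 WT mice Arntl was 34.5 and 43.6 CPM, above the highest Apcfl/fl value of 27.1. Tef ran from 21.8 to 55.1 CPM in Apcfl/fl mice and from 48.6 to 167 CPM in WT mice. Cry1 ran from 9.49 to 30.9 CPM in Apcfl/fl mice, a wider range than the 14.2 to 19.2 CPM of WT mice.

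The calls of Dbp, Nr1d1, Tef, Per2, Per3 and Nr1d2 were kept in all 16 fits with 1 library left out. Per1 lost its call without Apcfl/fl replicates 3, 6 or 9 or WT replicates 3, 4 or 6 (adjusted p up to 0.0885), and Arntl without WT replicates 1 or 2 (adjusted p up to 0.115). Among libraries with Gm13394 over 10 CPM (6 Apcfl/fl and 3 WT) 5 genes were lower, Dbp by 3.71 (adjusted p = 0.00152). Arntl (-0.23, edgeR adjusted p = 0.378), Per1 and Nr1d2 were not called in that set. Among the other libraries (4 and 3) 6 genes were lower, Dbp by 2.13 (adjusted p = 0.0206) and Arntl among them (-0.61, adjusted p = 0.042). Per3 was not called there (-0.60, adjusted p = 0.15), nor was Per1. With a term for Ddx3y over 10 CPM 8 genes were lower. These 3 fits were chosen after the data were seen.

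Levels of the overlapping genes were also read. Sphk2, which shares exon bases with Dbp, ran from 65.3 to 93.8 CPM in Apcfl/fl mice and from 103 to 176 CPM in WT mice, and Thra, which shares them with Nr1d1, from 41.5 to 101 CPM and from 81.0 to 168 CPM. Reads of the overlapped bases were not separated. Of the epithelial markers 3 of 10 were lower and 1 higher, of immune markers 4 of 10 lower, of nervous system markers 6 of 8 lower, of stromal markers 2 of 10 lower and of smooth muscle markers 1 of 8 lower. Summed epithelial levels were 8611 to 12309 CPM in Apcfl/fl mice and 11492 to 16373 CPM in WT mice, and summed nervous system levels 4.50 to 21.8 CPM and 21.2 to 35.9 CPM. Of 8 glucocorticoid-responsive genes 1 was higher and 3 lower, and of 9 immediate early genes 3 were higher and 2 lower. Their part in the result was not tested.

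Apcfl/+ tumours showed 7 clock genes lower than WT small intestine and none higher, beside 61.5% of 20567 genes called, 6189 of them lower and 6461 higher. Nr1d1 changed most (-2.41 ± 0.18, adjusted p = 2.66e-05), followed by Dbp (-1.74 ± 0.29, adjusted p = 0.00108), Per2 (-1.27 ± 0.28, adjusted p = 0.00416), Per3 (-1.20 ± 0.28, adjusted p = 0.00592) and Per1 (-1.13 ± 0.31, adjusted p = 0.0126). Nr1d2 (-0.62 ± 0.16, adjusted p = 0.00815) and Arntl (-0.48 ± 0.15, adjusted p = 0.0227) were lower by less. Tef gave -0.54 ± 0.23 (adjusted p = 0.0691), Ciart -0.54 ± 0.36 and Cry1 0.21 ± 0.16.

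Nr1d1 was 9.84, 10.8, 8.77, 6.37 and 9.82 CPM in the 5 tumours and 38.5, 49.7 and 47.5 CPM in WT tissue. Dbp was 17.4, 11.5, 14.5, 9.49 and 11.2 CPM in tumours and 55.2, 21.5 and 43.6 CPM in WT tissue. Per1 was 11.9, 20.3, 15.4, 9.73 and 21.5 CPM in tumours and 26.6, 23.7 and 46.4 CPM in WT tissue. No overlap was seen for 4 of the 10 genes, beside 60.3% of all genes. Arntl was 16.1 to 19.6 CPM in the tumours, and the WT value of replicate 1, 18.3, fell inside that range.

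WT replicate 2 had the highest Arntl (28.5 CPM) and the lowest Dbp, Per2, Per3 and Tef of the 3 WT mice. Without it Arntl was not called (-0.25, adjusted p = 0.125), while Tef (-0.79, adjusted p = 0.00423) and Ciart (-0.87, adjusted p = 0.0305) were. Per1 was not called without WT replicate 3 (-0.76, adjusted p = 0.073). Of 10 stromal markers 9 were higher in tumours (sums of 3263 to 4119 CPM against 1206 to 1499 CPM), 5 of 10 epithelial markers were higher and 1 lower, 2 of 10 immune markers were higher and 3 lower, and 4 of 8 smooth muscle and 4 of 8 nervous system markers were lower. Of 8 glucocorticoid-responsive genes 2 were higher and 6 lower, and of 9 immediate early genes 6 were higher and 1 lower. Gm13394 and Ddx3y also moved with the groups. Their part was not tested. DESeq2 called Tef as well (adjusted p = 0.0218), and Arntl was not called without the low-count filter (adjusted p = 0.0681).

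Beyond the 10 genes, 20 other genes of the clock and its outputs were read from a fixed list, of which 19 or 20 passed the filter in each comparison. In Apcfl/fl small intestine 4 were higher and 9 lower, beside 54.2% of all genes called, and in Apcfl/+ tumours 7 were higher and 8 lower, beside 61.5%. In BA tumours 4 were higher and 1 lower, beside 13.2%, and in BA colon of day 30 against WT 5 higher and 8 lower, beside 55.1%. In antibiotic-treated BA colon against WT 4 were higher and 4 lower, beside 39.6%, and in BA against A 7 higher and 6 lower, beside 45.3%. A against WT and sulindac against no sulindac gave 0 in either direction by edgeR, beside 0.141% and 0% of all genes called, with 3 and 0 of the 20 genes at an unadjusted p under 0.05. Antibiotics in BA gave 0 higher and 2 lower, Npas2 (-0.62) and Bhlhe40 (-0.44), beside 13%.

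Arntl2, a paralogue of Arntl, was higher in 3 comparisons. In Apcfl/fl mice it was higher by 3.13 ± 0.49 (adjusted p = 5.31e-05), with 4.50 to 23.7 CPM against 0.309 to 2.84 CPM in WT mice. In Apcfl/+ tumours it was higher by 2.82 ± 0.26 (adjusted p = 6.14e-05), with 12.4 to 19.0 CPM against 1.32, 2.53 and 1.95. In BA tumours it was higher by 2.15 ± 0.28 (adjusted p = 0.0031), with 8.13, 8.13, 9.66 and 10.6 CPM against 2.34, 2.30 and 1.62. At day 30 it did not pass in BA colon (0.08 ± 0.22, adjusted p = 0.761), and the difference between tumours and day 30 passed (2.06 by the interaction term).

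Hlf, the third D-box activator beside Dbp and Tef, was lower in all 4 of these comparisons: by 2.96 ± 0.46 in Apcfl/fl mice, 3.44 ± 0.35 in Apcfl/+ tumours, 1.76 ± 0.48 in BA tumours and 1.56 ± 0.33 in BA colon of day 30 (adjusted p from 5.39e-05 to 0.0424). At day 30 Hlf therefore fell while Dbp and Tef rose, with 2.52, 0.603, 3.33, 2.01 and 1.6 CPM in BA mice and 5.85, 5.60, 5.45 and 7.01 CPM in WT mice, which did not overlap. Usp2, a deubiquitinase and clock output, was lower by 3.04 ± 0.20 in BA colon of day 30 (adjusted p = 6.27e-07), from 21.6 to 39.6 CPM in WT to 2.67 to 4.52 CPM in BA mice. It was 4.30 to 5.50 CPM with antibiotics and 22.4 to 28.5 CPM in A mice. WT proximal colon with no day had 7.29 to 13.6 CPM of Usp2, lower than WT colon of day 30, and BA tumours 2.30 to 8.13 CPM.

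Bhlhe40, which represses E-box genes, was higher in BA colon (1.15 ± 0.11), antibiotic-treated BA colon (0.73 ± 0.11), BA tumours (0.99 ± 0.20) and Apcfl/+ tumours (1.31 ± 0.19), and not in Apcfl/fl mice (-0.01 ± 0.17, adjusted p = 0.981). Its relative Bhlhe41 was lower in BA colon (-0.98 ± 0.27), Apcfl/fl (-1.37 ± 0.51) and Apcfl/+ tumours (-1.19 ± 0.34). Nfil3, the repressor at D-boxes, was lower in BA colon of day 30 (-1.14 ± 0.20) and higher in Apcfl/+ tumours (1.46 ± 0.26), and its BA effect differed by 2.71 between tumours and day 30.

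**Figure D4:**
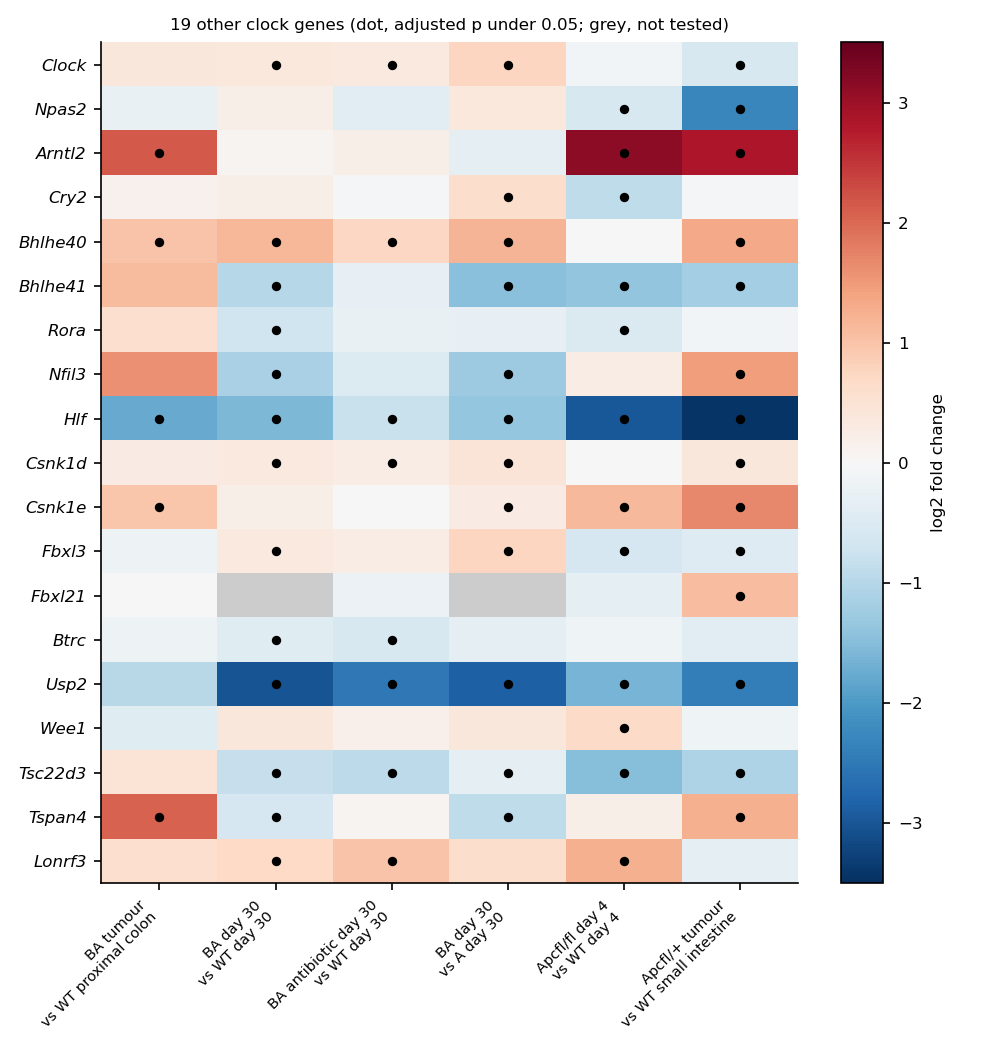
Log2 fold changes of 19 other clock genes in 6 comparisons (red higher, blue lower, grey not tested), with a dot where adjusted p is under 0.05. Arntl2 is higher in both Apc comparisons and in BA tumours but not in BA colon of day 30, and Hlf is lower in all 6.

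The log2 ratio of Arntl to Dbp was used as 1 summary number per library. Its group means were 3.77 ± 0.71 in WT colon of day 30, 2.89 ± 0.42 in antibiotic-treated BA, 2.74 ± 1.21 in A, 2.54 ± 0.77 in sulindac-treated A and 2.28 ± 0.92 in BA colon. They were 1.70 ± 1.19 in Apcfl/fl mice, 1.00 ± 1.04 in BA tumours, 0.53 ± 0.95 in WT proximal colon, 0.46 ± 0.39 in Apcfl/+ tumours, -0.52 ± 2.00 in WT mice of day 4 and -0.76 ± 1.04 in WT small intestine. The ratio ran from -2.58 to 2.43 among the 6 WT mice of day 4 alone and from -0.17 to 3.86 among the 10 Apcfl/fl mice. The ranges of these groups overlapped.

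When the Arntl to Dbp ratio entered the fit as a term beside genotype or treatment, fewer genes were called in 8 of the 9 comparisons. In the other, sulindac, 0 were called with or without it. In BA against WT of day 30 the number went from 9634 to 7255, and 71.9% of the first calls were kept. In antibiotic-treated BA against WT it went from 6966 to 4590 (63.9% kept), in Apcfl/fl mice from 9504 to 7128 (73.2% kept) and in Apcfl/+ tumours from 12650 to 7439 (58.2% kept). In BA against A it went from 7761 to 7377 (92.8% kept), in BA tumours from 2527 to 2236 (81.4% kept), in antibiotic against none from 2172 to 2043 (75.5% kept) and in A against WT from 25 to 21 (68% kept). The ratio differs between the groups of most comparisons, so the term also takes up part of the group difference and a degree of freedom. In both Apc comparisons Arntl and Dbp were lower together, so the ratio there also takes up their unequal fall. How many of the lost calls reflect clock time cannot be told apart from these.

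**Figure D5:**
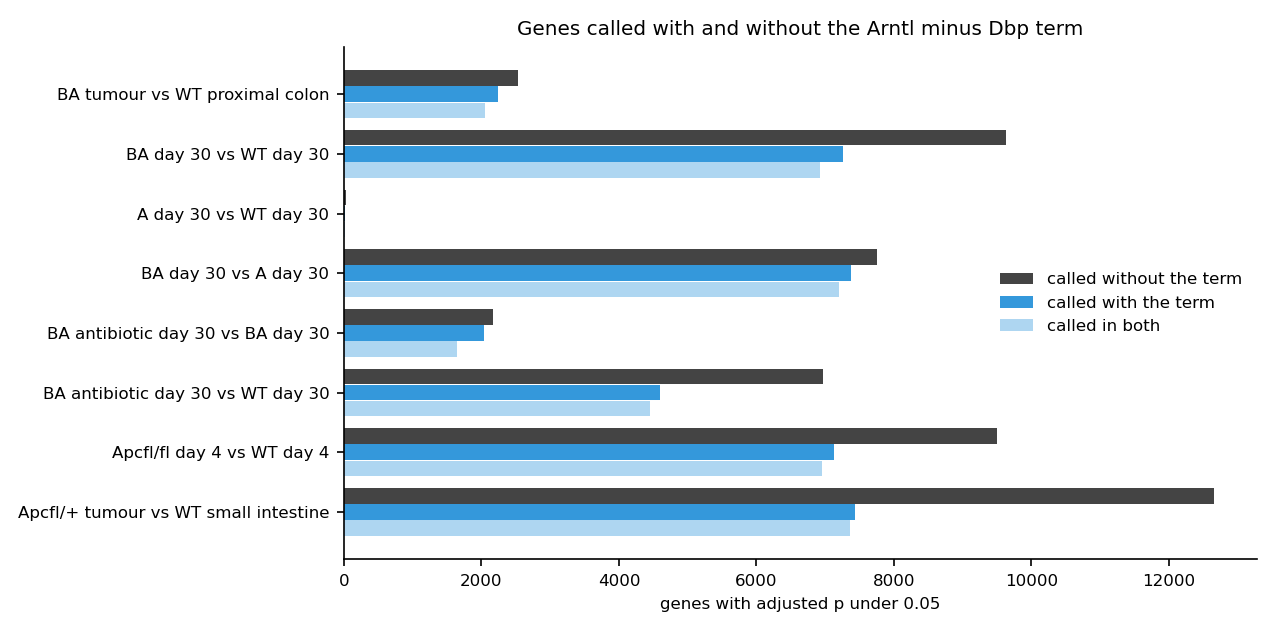
Genes with adjusted p under 0.05 in 8 comparisons without the Arntl to Dbp ratio as a term, with it, and in both fits. The largest drop is in Apcfl/+ tumours (12650 to 7439) and the smallest share lost in BA against A (92.8% kept).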

How the data were processed

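The authors sequenced RNA of 53 whole-tissue samples with a kit that does not mark strand, trimmed reads (Trim Galore 0.6.4), aligned them to GRCm38 (HISAT2 2.1.0), counted them on genes (featureCounts 1.6.4) and deposited raw counts without normalisation in 1 table. The versions are from the submitters' processing notes, and the strand and multimapping settings are not given in the sources used here. 0 columns were left out.

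Groups and replicate numbers follow the labels. No source says that equal replicate numbers mark the same animal. Each comparison was fitted alone on the counts with edgeR 4.0.16 (quasi-likelihood, filterByExpr, TMM, two-sided, Benjamini-Hochberg threshold 0.05). SE is the log2 fold change divided by the root of F. Log2 levels used a prior count of 2. Alternatives were RLE factors, DESeq2 1.42.0, limma 3.58.1 with voom, no filter, a replicate block, all day-30 groups in 1 fit and each library left out. Terms were added for the clock ratio and Ddx3y, and libraries were split by Gm13394. No 2 libraries of a group agreed within counting noise (chi-square per gene at least 4.44). Correlations over mice were on log2 levels and used exact permutation tests, or 100000 resamples with 10 mice, and were two-sided. R 4.3.3 and Python 3.11.15 were used. In simulated data with 200 genes changed by 2 on the log2 scale, 10 fits recovered 72.5% to 100% of these genes. Of the calls in these fits, 0.685% to 9.5% fell on unchanged genes.

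The 10 genes and the lists (20 other clock genes, 8 glucocorticoid-responsive, 9 immediate early and 5 marker lists) were chosen with earlier results of these data known. All members and other clock genes could be named, apart from 1 of the latter that is counted but not reported here, and from other lists the genes with the largest and smallest change. Totals ran from 516985 to 32824795 reads. SEs and intervals describe the uncertainty of a difference between group means, estimated from the spread between these mice.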

Additional observations from a re-analysis of the deposited data

Results flagged for a closer look

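Of 90 gene and group combinations with 4 to 10 mice, 5 held 1 library whose gap to the next was large for the range of its group (Dixon's test), and chance gives about 1 in 20. Per1 was 137 CPM in BA tumour replicate 2, with 30.297 CPM as the next highest. It was 19.1 CPM in BA replicate 2 of day 30, with 28.3 CPM as the next lowest. The same BA mouse had 3.62 CPM of Dbp, with 9.03 CPM as the next lowest. Per2 was 21.8 CPM in A replicate 3 of day 30, with 13.2 CPM as the next highest. Nr1d1 was 78.7 CPM in antibiotic-treated BA replicate 1, with 93.7 CPM as the next lowest.

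The BA effect differed between tumours and day 30 by the interaction term for Per1 (log2 difference 2.02) and for Dbp (-2.02), each effect being measured against its own WT colon.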

How the results depend on the processing

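Of results for single genes, 651 kept direction and call under other settings, 21 gained and 19 lost a call, and 16 turned, and with 1 library left out the numbers were 1009, 27, 72 and 70. Causes were not tested.

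In BA tumours DESeq2 called 1 and a fit without filter 2 of the 10 genes, against 0. With the replicate block, 0 genes were called in BA against A (2 without it), 4 in Apcfl/+ tumours (7 without it) and 8 between the WT small intestine sets (3 without it). Pairing by equal numbers was not seen in most libraries. Over all comparisons 5 of 43 pairs correlated over 0.1 (range -0.35 to 0.21), and in 0 comparisons did every pair. In 12 pairs the sample correlated best with its own number. The correlated values are deviations from means of small groups, and no source names the animals, so this check does not settle pairing. Of Apcfl/fl libraries with Gm13394 over 10 CPM, 5 genes were called (8 in all). With the clock ratio as a term 4590 genes were called in antibiotic-treated BA against WT and 7439 in Apcfl/+ tumours.

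Signs turned with the block for Tef in BA tumours (-0.052), Per3 (0.17) and Dbp (0.13) with sulindac, Cry1 in Apcfl/fl (-0.023), Per2 between WT colon sets (-0.0073) and Dbp between WT small intestine sets (-1.20, adjusted p = 0.0300). They turned with voom for Per3 (0.16) and Dbp (0.12) with sulindac and for Arntl (-0.027) and Dbp (-0.30) between WT small intestine sets. Arntl turned with RLE or DESeq2 in the interaction (-0.0098 and -0.0105), without filter there (-0.0898), and with RLE or DESeq2 between WT small intestine sets (-0.0218 and -0.0230). Cry1 in Apcfl/fl was -0.35 among libraries with Gm13394 at or under 10 CPM.

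With 1 library left out, genes called ran from 0 to 2 in BA tumours, 5 to 8 in BA and 3 to 8 in antibiotic-treated BA against WT, 0 to 5 in BA against A, 0 to 2 for antibiotics, 7 to 8 in Apcfl/fl, 6 to 8 in Apcfl/+ tumours, 0 to 3 in the interaction, 4 to 8 and 1 to 3 between WT sets of colon and small intestine, and stayed at 0 for A and sulindac. Log2 changes crossed 0 for Cry1 in BA tumours (-0.0853 to 0.33), in A (-0.35 to 0.0486), in BA against A (-0.0611 to 0.29), with sulindac (-0.0620 to 0.36), with antibiotics (-0.0764 to 0.0782), in Apcfl/fl (-0.0817 to 0.0944) and in the interaction (-0.0714 to 0.49). In A they did for Per3 (-0.25 to 0.62), Nr1d2 (-0.32 to 0.30) and Tef (-0.0452 to 0.66), and in BA against A for Dbp (-0.0620 to 0.82). With sulindac they did for Arntl (-0.20 to 0.0227), Per1 (-0.0545 to 0.23), Per3 (-0.31 to 0.55), Nr1d1 (-0.22 to 0.37), Dbp (-0.27 to 0.59) and Tef (-0.18 to 0.43), and with antibiotics for Per2 (-0.0480 to 0.12) and Per3 (-0.0930 to 0.0399). In the interaction they did for Arntl (-0.25 to 0.17), Per2 (-0.22 to 0.14) and Per3 (-0.32 to 0.0708), and between WT sets for Per2 in colon (-0.0617 to 0.19) and Arntl (-0.18 to 0.24) and Dbp (-0.24 to 0.38) in small intestine. Over Apcfl/fl mice without replicate 1 or replicate 8, r of Arntl ran from -0.0972 to -0.0942 with Cry1, from -0.55 to 0.43 with Ciart and from -0.32 to 0.19 with Nr1d1.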
